A study of Mus musculus with 10 samples.

Results

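Translation initiation and elongation factors were followed in ribosome-bound RNA from the dorsal and the ventral hippocampus. They were taken as the protein-coding genes whose GRCm38 symbol begins with Eif1 to Eif6, Eef1 or Eef2, which gave 68 genes of the 54838 counted; 11 further genes with such symbols had another biotype and were not included. Of the 68 genes, 65 passed the expression filter, which asked for CPM (counts scaled to library size) over 1 in at least 2 libraries. In all 10 libraries the RNA came from MC-TRAP mice (Drd2-Cre;Eef1a1LSL.eGFPL10a/+) on C57BL/6, male and about 10 weeks old, in which Cre recombination switches on an EGFP-tagged ribosomal protein L10a, so that tagged ribosomes and their mRNA can be precipitated (translating ribosome affinity purification, TRAP). The 5 Dorsal libraries came from the dorsal portion and the 5 Ventral libraries from the longer ventral portion of the hippocampus, without the ventral subiculum, each library from the pooled tissue of 5 mice kept in buffer with cycloheximide, which holds ribosomes on mRNA. Hippocampi of the same mice were divided into both portions, so that the groups share animals, and the sources do not say which dorsal and ventral pools hold the same mice. No treatment separated the groups. The Drd2-Cre driver labels mossy cells (MCs) of the dentate hilus and also some GABAergic interneurons, and the tagged allele sits in the locus of Eef1a1, which is itself one of the factors studied.

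Initiation in eukaryotes begins when eIF2, carrying GTP and the initiator tRNA, joins the small ribosomal subunit together with eIF1, eIF1A, eIF3 and eIF5, while eIF4E, eIF4G and the helicase eIF4A bring the capped mRNA. eIF2B reloads eIF2 with GTP, and kinases that phosphorylate eIF2alpha block this exchange in the integrated stress response, a pathway that in neurons also bears on memory and plasticity. eEF1A then delivers each aminoacyl-tRNA and eEF2 moves the ribosome along the mRNA.

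Library totals on genes lay between 11138676 and 20594364 counts, where 3 counts equal 0.146 to 0.269 CPM. Read pairs assigned to no gene made up 21.8 to 33.9% of pairs in dorsal and 11.6 to 19.3% in ventral libraries. The percentage is of pairs assigned to a gene, to no gene or ambiguously. Pairs within introns may be among those assigned to no gene, as the feature type counted was not known here. Mitochondrially encoded mRNA stood at 2692 to 3493 CPM in dorsal against 437 to 1209 CPM in ventral libraries. For both measures, a two-sided permutation test, exact over 5 against 5, gave its lowest possible p of 0.00794. The labelled cell type was checked with 8 MC markers, whose summed level was 1700 to 1980 CPM in dorsal against 1767 to 2080 CPM in ventral libraries, with Csf2rb2 alone below the expression filter. Of the 7 tested, 3 were dorsal-enriched, beside 15.7% of all genes, and 2 ventral-enriched, beside 9.85%. The sums thus hold members of opposite direction. Dorsal and ventral means were 1143 and 651 CPM for Gria2 and 65.2 and 616 CPM for Calb2, and Gria2 supplied most of the dorsal sum. The 8 interneuron markers summed to 3268 to 4363 CPM in dorsal against 3951 to 5191 CPM in ventral libraries, mostly through Gad2. These sums lay above those of the MC markers. The name MC-enriched population is taken from the paper, which based it on histological counts, and not from these sums. These are bulk precipitates, in which fewer cells of a type and less RNA per cell cannot be told apart.

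None of the tested translation factors was dorsal-enriched and 8 were ventral-enriched. A call needed an edgeR quasi-likelihood adjusted p under 0.05 (Benjamini-Hochberg over all 16806 genes tested) together with group means, in CPM plus 1, that differed by over 0.58 on the log2 scale. The ventral-enriched genes were Eif2b2 and Eif2b5 of eIF2B, Eif3k, Eif3i and Eif3d of eIF3, and the ribosome assembly factor Eif6. The others were Eef1a2 and Eef1e1, which are grouped here by symbol with the elongation factors. They made up 12.3% of the 65 factors, beside 9.85% of all genes tested, and the dorsal count of 0 stood beside 15.7% of all genes. All factors are protein-coding, and of the 13549 protein-coding genes tested 1540 were dorsal-enriched and 10.3% ventral-enriched. DESeq2 called 7 factors ventral-enriched, beside 8.68% of all genes, and 0 dorsal-enriched, beside 15.2%. At an unadjusted p below 0.05 edgeR placed 24 factors lower in dorsal libraries, beside 20.8% of all genes, and 1 higher, beside 24.0%. The latter was Eif1ad, named here after its values were seen, with a log2 fold change of 0.33 (SE 0.12, edgeR adjusted p = 0.0527); 15.3% of its exonic length overlaps Banf1 on the opposite strand.

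At any fold change, 13 factors passed the adjusted p lower in dorsal libraries, beside 14.6% of all genes, and 7 had ventral values that all lay above the dorsal ones, beside 8.36% of all genes. The share of factors called ventral-enriched was near that of all genes, 12.3% beside 9.85%. Without the fold threshold the shares lay further above those of all genes, which include non-coding ones. These were 13 of 65 by adjusted p, beside 14.6%, and 24 of 65 by unadjusted p, beside 20.8%. Protein-coding genes, as all factors are, give a higher background. Of the 13549 tested, 2179 passed the adjusted p lower in dorsal libraries and 1298 had ventral values that all lay above the dorsal ones. Both are larger shares than over all genes. The median log2 fold change, dorsal over ventral, was -0.15 over the 65 tested factors, -0.04 over protein-coding genes and -0.0044 over all genes, and 48 of the 65 factors had a value below 0. Genes of the cap-binding step lay close to 0, the eIF4G scaffolds between -0.02 and 0.07, and the eIF4E family between -0.15 and 0.09.

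**Figure D1:**
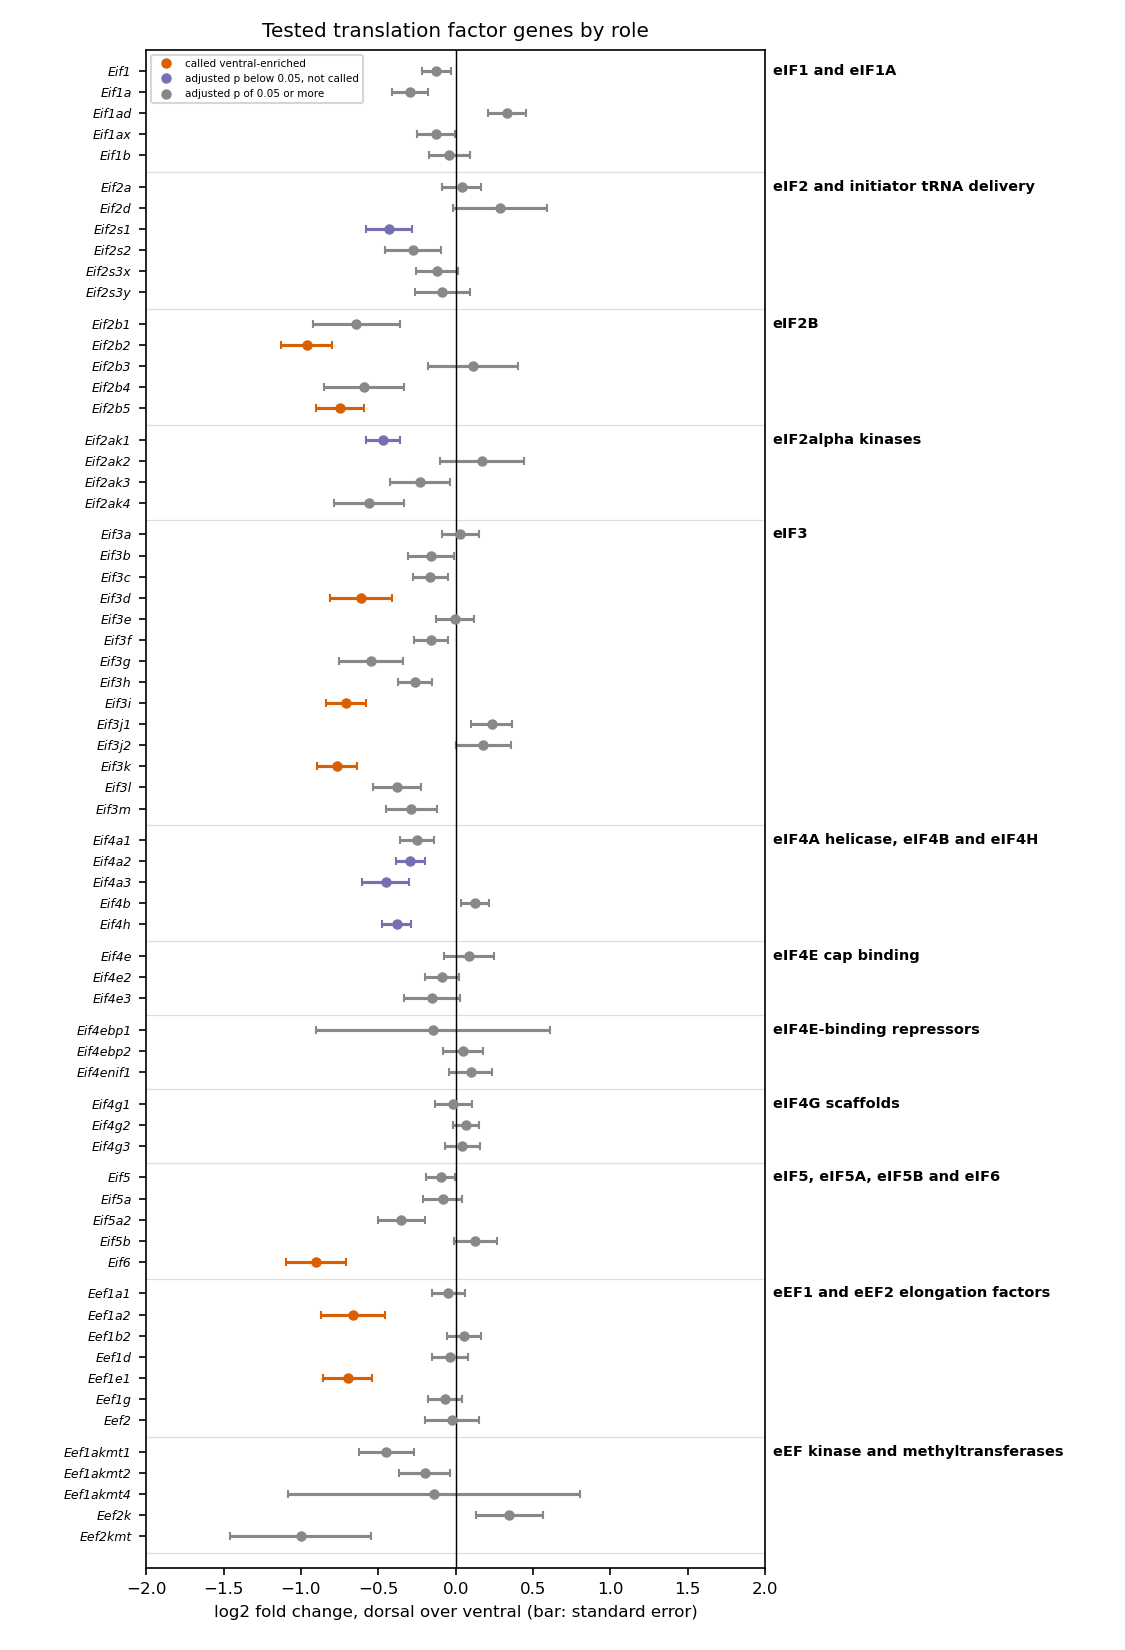
Log2 fold change, dorsal over ventral (x axis), of the 65 tested translation factor genes, grouped by role on the y axis; points are edgeR estimates and bars their standard errors from 5 dorsal and 5 ventral libraries. The 8 orange points are the genes called ventral-enriched, from Eif2b2 at -0.96 to Eif3d at -0.61; no factor was called in the dorsal direction.

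eIF2B, the exchange factor that recharges eIF2 with GTP, showed the lowest median of the roles. Of its 5 genes, 2 were ventral-enriched, beside 9.85% of all genes, and the median log2 fold change was -0.64. Eif2b2 (ENSMUSG00000004788, chr12:85219481-85226628, plus strand), the beta subunit of the regulatory part, was at 11.4, 13.3, 10.9, 13.6 and 10.3 CPM in the dorsal libraries and at 23.8, 26.7, 17.3, 23.4 and 25.0 CPM in the ventral libraries, each in the order of replicates 1 to 5. Every ventral value lay above every dorsal one. Dorsal libraries averaged 11.9 ± 1.46 CPM and ventral ones 23.2 ± 3.55 CPM (SD, n = 5), a log2 fold change of -0.96 (SE 0.17, edgeR adjusted p = 0.000986).

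Eif2b5 (ENSMUSG00000003235, chr16:20498817-20509323, plus strand), the epsilon subunit that carries the exchange activity, was at 18.1, 18.8, 17.7, 14.1 and 14.1 CPM in the dorsal and 26.2, 31.3, 22.0, 28.0 and 30.6 CPM in the ventral libraries. These groups did not overlap either, and the log2 fold change was -0.75 (SE 0.16, edgeR adjusted p = 0.00311). The remaining subunits were not called: Eif2b1 (alpha) had a log2 fold change of -0.64 (SE 0.28, edgeR adjusted p = 0.0922) and Eif2b4 (delta) of -0.59 (SE 0.26, edgeR adjusted p = 0.0916), while Eif2b3, the gamma subunit that joins epsilon in the catalytic part, was at 0.11 (SE 0.29). Eif2b1 passed both thresholds without ventral replicate 1 (-0.85) and Eif2b4 without dorsal replicate 3 (-0.77). Summed over the 5 genes, eIF2B was at 55.8 to 66.7 CPM in dorsal against 77.8 to 108 CPM in ventral libraries.

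The sequences around the starts of both called eIF2B genes are given from RefSeq (GRCm38.p6), 90 bases before to 30 bases after the annotated start on the strand of the gene, because these genes encode subunits of the same complex. Capitals mark a match to CCGGAAG, the core bound by ETS factors, read on either strand.
Eif2b2, chr12:85219391-85219510: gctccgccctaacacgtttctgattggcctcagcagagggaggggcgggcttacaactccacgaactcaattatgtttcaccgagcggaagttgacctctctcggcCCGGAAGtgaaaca
Eif2b5, chr16:20498727-20498846: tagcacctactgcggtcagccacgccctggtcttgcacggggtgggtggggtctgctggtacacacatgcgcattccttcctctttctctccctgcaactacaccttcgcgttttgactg

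None of the 6 genes of eIF2, the substrate of eIF2B, and of initiator tRNA delivery was called by edgeR or DESeq2 before correction for GC content and exonic length. Of the 6, 1 had an unadjusted p below 0.05. That gene was Eif2s1, which encodes eIF2alpha, the subunit that the stress kinases phosphorylate. Its level was 53.1, 37.7, 35.5, 39.4 and 34.0 CPM in the dorsal and 47.9, 58.5, 65.7, 47.3 and 49.7 CPM in the ventral libraries. Dorsal replicate 1 reached into the ventral range and the other dorsal libraries lay below it. The log2 fold change of -0.43 (SE 0.15, edgeR adjusted p = 0.0385) passed the test but not the fold threshold. The gamma subunit has a copy on each sex chromosome: Eif2s3x was at 43.5 ± 7.75 CPM in dorsal against 47.0 ± 4.23 CPM in ventral libraries, and its Y-linked copy Eif2s3y at 35.2 ± 8.12 and 37.8 ± 8.26 CPM, with values that overlapped between groups for both. With each library corrected for GC content and exonic length, 3 of the 6 genes were ventral-enriched, beside 9.97% of all genes. Eif2s3y moved to -1.25 (edgeR adjusted p = 9.3e-05), Eif2s2 to -0.60 (edgeR adjusted p = 0.0106) and Eif2s1 to -0.59 (edgeR adjusted p = 0.0022).

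Of the 4 eIF2alpha kinases none was called, and DESeq2 also called none. Eif2ak1, the kinase known for sensing heme and mitochondrial stress, had a log2 fold change of -0.47 (SE 0.11, edgeR adjusted p = 0.00589), with dorsal libraries at 46.8 to 57.8 CPM and ventral libraries at 62.0 to 75.1 CPM that did not overlap. Eif2ak4, the amino acid sensor GCN2, was at -0.56 (SE 0.23, edgeR adjusted p = 0.0689), and the kinases of the endoplasmic reticulum (Eif2ak3) and of viral RNA (Eif2ak2) were at -0.23 and 0.17. At an unadjusted p below 0.05, 2 of the 4 kinases were lower in dorsal libraries, beside 20.8% of all genes. The summed level was 70.4 to 88.3 CPM in dorsal against 96.7 to 111 CPM in ventral libraries; Eif2ak1 supplied most of it and shares 11.6% of its exonic length with genes on the other strand.

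eIF3 is the large scaffold that binds the small subunit and keeps it ready for mRNA. Of its 14 genes, 3 were ventral-enriched, beside 9.85% of all genes, and the median log2 fold change was -0.21. Eif3k (ENSMUSG00000053565, chr7:28971372-28981864, minus strand), a small subunit at the edge of the core, was at 34.5, 47.4, 54.3, 47.1 and 49.3 CPM in the dorsal and 73.5, 72.3, 80.0, 82.6 and 88.7 CPM in the ventral libraries. The groups did not overlap, and the log2 fold change was -0.77 (SE 0.13, edgeR adjusted p = 0.000732), the lowest adjusted p of the 65 factors.

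Eif3i (ENSMUSG00000028798, chr4:129591960-129600648, minus strand), a WD-repeat subunit of the mobile module with eIF3b and eIF3g, was at 69.5, 89.1, 80.2, 75.9 and 86.7 CPM in the dorsal and 157, 136, 99.7, 138 and 126 CPM in the ventral libraries. Again no values overlapped, with a log2 fold change of -0.71 (SE 0.13, edgeR adjusted p = 0.00118). Its partner Eif3g was at -0.55 (SE 0.21, edgeR adjusted p = 0.0559) and was called without dorsal replicate 3 (-0.65) or ventral replicate 3 (-0.64), whereas Eif3b was at -0.16 (SE 0.15).

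Eif3d (ENSMUSG00000016554, chr15:77958998-77970813, minus strand), the subunit that can itself bind the mRNA cap, was at 7.15, 14.3, 10.8, 11.7 and 10.7 CPM in the dorsal and 13.6, 15.1, 18.6, 15.9 and 21.3 CPM in the ventral libraries. Dorsal replicate 2 lay above ventral replicate 1, the only overlap between the groups, and the log2 fold change of -0.61 (SE 0.20, edgeR adjusted p = 0.0310) was the smallest of the 8 called. The call was lost in 7 of the 10 fits that left out a library: without dorsal replicate 1, 3, 4 or 5 (-0.51, -0.60, -0.63 and -0.59) and without ventral replicate 3, 4 or 5 (-0.59, -0.63 and -0.49). It was also lost with DESeq2 (-0.60), with DESeq2's size factors (-0.58), upper-quartile factors (-0.57) or total counts (-0.60), with no expression filter (-0.62) or one over 5 libraries (-0.59), and among protein-coding genes alone (-0.58). Of its exonic length, 43.3% overlaps Gm17638 on the opposite strand. The sources used here do not state whether strand was counted, so how reads over this overlap were assigned is not known. Pairs assigned ambiguously made up 5.92 to 7.17% of pairs in dorsal and 6.30 to 8.66% in ventral libraries.

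The other eIF3 subunits were spread around a small shift. Of the octamer core, Eif3l was at -0.38, Eif3m at -0.29, Eif3h at -0.26, Eif3c and Eif3f at -0.16, Eif3e at -0.0049 (-1.01 with the GC and length correction) and Eif3a, the largest core subunit, at 0.03. The loosely bound subunit eIF3j is encoded by Eif3j1 at 0.23 and Eif3j2 at 0.18. Of the 50-base windows of Eif3j2, 90.8% also occur in other genes, mainly Eif3j1, and of those of Eif3j1 44.7% do, mainly in Eif3j2. These 2 readings may therefore not be separate measurements, and how reads of shared windows were counted was not tested. Summed over the 14 genes, eIF3 was at 963 to 1051 CPM in dorsal against 1125 to 1191 CPM in ventral libraries, which did not overlap.

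Among the called eIF3 genes with a RefSeq promoter entry, both held a motif in the printed window. Capitals mark CTTCCGG, the ETS core read on the opposite strand, in Eif3d, and the palindromic NRF1 motif in Eif3k.
Eif3d, chr15:77970795-77970914: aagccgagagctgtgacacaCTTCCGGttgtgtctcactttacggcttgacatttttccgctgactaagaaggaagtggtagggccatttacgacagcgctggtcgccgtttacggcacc
Eif3k, chr7:28981859-28981978: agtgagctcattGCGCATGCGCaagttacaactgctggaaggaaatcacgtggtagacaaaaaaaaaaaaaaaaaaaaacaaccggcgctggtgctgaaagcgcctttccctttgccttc
Over the whole 300-base promoter entries, 250 bases before to 50 after the start, 52 of the 68 factors had an entry and 17 of them (32.7%) held CCGGAAG on either strand, beside 9.93% of 27025 genes and 18.6% of the 10609 protein-coding genes that were tested for expression. Of the 6 called factors with an entry 2 held it, Eif2b2 and Eif3d. The NRF1 motif was held by Eif3k alone, 1.92% of the 52, beside 1.07% of all genes and 2.23% of the tested protein-coding ones, and TATAAA by 5 factors (9.62%), none of them called, beside 15.7% and 8.79%. These matches describe letters in a window and not binding, and entries for Eif3i and Eif6 were not used.

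**Figure D2:**
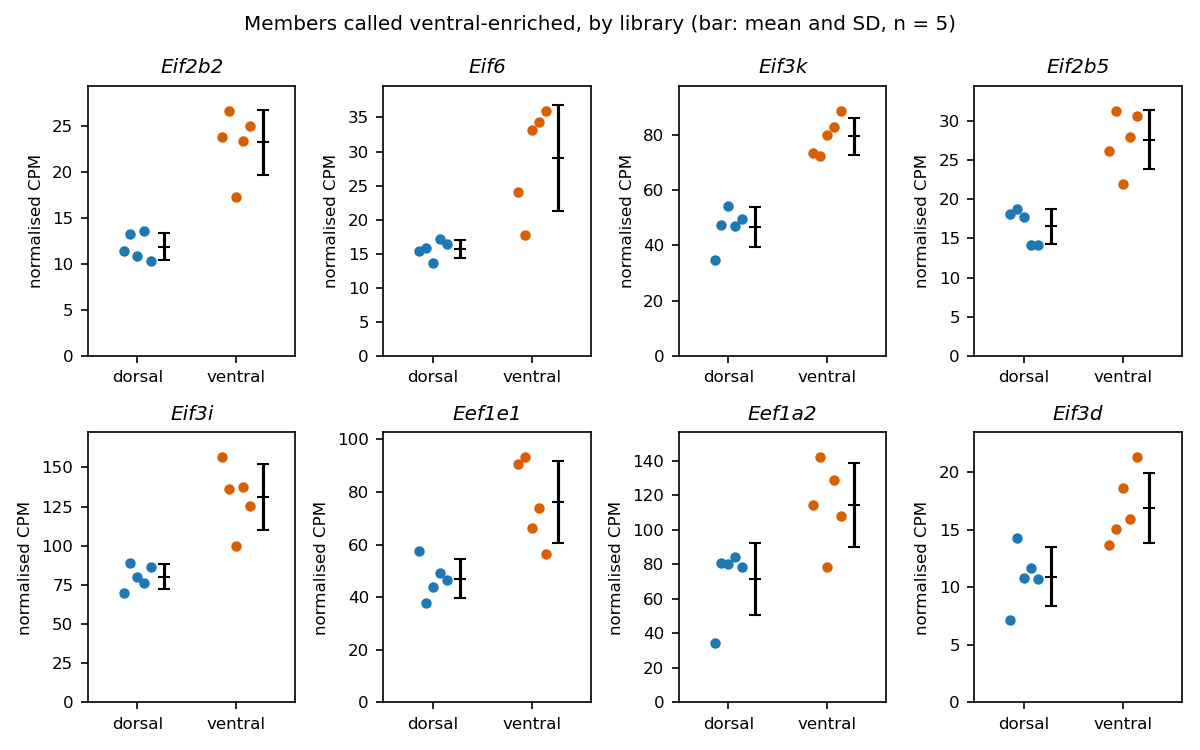
Normalised CPM (y axis, starting at 0) of the 8 ventral-enriched factors in each of the 5 dorsal (blue) and 5 ventral (orange) libraries; points are libraries and black bars the mean and SD. Eif2b2, Eif6, Eif3k, Eif2b5 and Eif3i show no overlap between groups, whereas Eef1a2 has 1 low dorsal library at 34.5 CPM.

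Eif6 (ENSMUSG00000027613, chr2:155819832-155826925, minus strand) keeps free large ribosomal subunits from joining small ones and takes part in the assembly of the large subunit. Its level was 15.3, 15.9, 13.6, 17.2 and 16.5 CPM in the dorsal and 24.0, 17.8, 33.1, 34.3 and 36.0 CPM in the ventral libraries. Ventral replicate 2 came within reach of the dorsal libraries without entering their range, and the log2 fold change was -0.90 (SE 0.20, edgeR adjusted p = 0.00382). Of its exonic length 5.11% overlaps Gm16098 on the opposite strand. The subunit joining factors were not called: Eif5, which triggers GTP hydrolysis on eIF2, and Eif5b, which joins the subunits, had log2 fold changes of -0.10 and 0.13.

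The helicase eIF4A, which unwinds the mRNA leader, and its helpers eIF4B and eIF4H had no called gene by edgeR or DESeq2. Of their 5 genes, 3 passed the adjusted p lower in dorsal libraries at a smaller fold, beside 14.6% of all genes at any fold. Eif4a2, the helicase paralogue abundant in brain, was at 973, 787, 742, 786 and 757 CPM in the dorsal and 1077, 1051, 954, 931 and 942 CPM in the ventral libraries, and its log2 fold change was -0.29 (SE 0.09, edgeR adjusted p = 0.0256). Dorsal replicate 1 was the only dorsal library in the ventral range. Eif4h had a log2 fold change of -0.38 (SE 0.09, edgeR adjusted p = 0.00818) with groups that did not overlap, and Eif4a3, the paralogue of the exon junction complex, one of -0.45 (SE 0.15, edgeR adjusted p = 0.0352). Eif4b was at 0.13 (SE 0.09).

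In the cap-binding step, none of the 3 tested eIF4E genes, the 3 eIF4G scaffolds or the 3 tested eIF4E-binding repressors was called by edgeR or DESeq2, and 0 of these 9 had an unadjusted p below 0.05. Eif4g2, the scaffold that initiates without eIF4E, ranged from 1082 to 1388 CPM over all libraries, and per kilobase of exon Eif4ebp1, the best known repressor controlled by mTOR, averaged 0.272 CPM and its paralogue Eif4ebp2 10.2 CPM.

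Of the 7 genes grouped by symbol as elongation factors, 2 were ventral-enriched, beside 9.85% of all genes, and the others lay between -0.07 and 0.05. Eef1e1 (ENSMUSG00000001707, chr13:38644207-38659058, minus strand) encodes a small protein of the aminoacyl-tRNA synthetase complex. It was at 57.7, 37.6, 43.9, 49.1 and 46.6 CPM in the dorsal and 90.5, 93.2, 66.3, 73.9 and 56.5 CPM in the ventral libraries. The highest dorsal value lay just above the lowest ventral one, and the log2 fold change was -0.70 (SE 0.16, edgeR adjusted p = 0.00512).

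Eef1a2 (ENSMUSG00000016349, chr2:181147653-181157014, minus strand), the eEF1A paralogue of mature neurons and muscle, was at 34.5, 80.9, 80.1, 84.1 and 78.3 CPM in the dorsal and 115, 142, 78.4, 129 and 108 CPM in the ventral libraries. Dorsal replicate 1 stood far below the other dorsal libraries, and ventral replicate 3 lay within their range. The log2 fold change of -0.66 (SE 0.21, edgeR adjusted p = 0.0240) fell short of the fold threshold without dorsal replicate 1, at -0.50, and missed the adjusted p without ventral replicate 2 (-0.58, edgeR adjusted p = 0.0522) or ventral replicate 4 (-0.61, edgeR adjusted p = 0.0565).

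Its widespread paralogue Eef1a1 was at 331, 277, 314, 281 and 283 CPM in the dorsal and 258, 304, 291, 308 and 372 CPM in the ventral libraries, a log2 fold change of -0.05 (SE 0.11). This reading comes from a locus with an inserted transgene in both groups, and 38.6% of its 50-base windows recur in other genes, most of them pseudogenes, whereas no window of Eef1a2 does. The other subunits of the exchange complex, Eef1b2, Eef1d and Eef1g, were at 0.05, -0.04 and -0.07, and Eef2, the translocase, at -0.02. Eef2k, the kinase that inactivates eEF2, was at 0.35 (SE 0.21, edgeR adjusted p = 0.225) and was not called, nor was any of the 4 tested methyltransferase genes by edgeR or DESeq2.

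The 9 members known to carry a 5′ terminal oligopyrimidine tract, the sequence through which mTOR controls the translation of ribosomal proteins and elongation factors, included none of the called genes. Their log2 fold changes lay between -0.26 and 0.13 with a median of -0.04, DESeq2 called 0, and 1 of the 9, Eif3h, had an unadjusted p below 0.05. The 56 other tested members had a median of -0.16 and included all 8 called genes. With the GC and length correction, 1 of the 9 and 11 of the 56 were ventral-enriched, beside 9.97% of all genes. The difference between these sets was not tested.

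**Figure D3:**
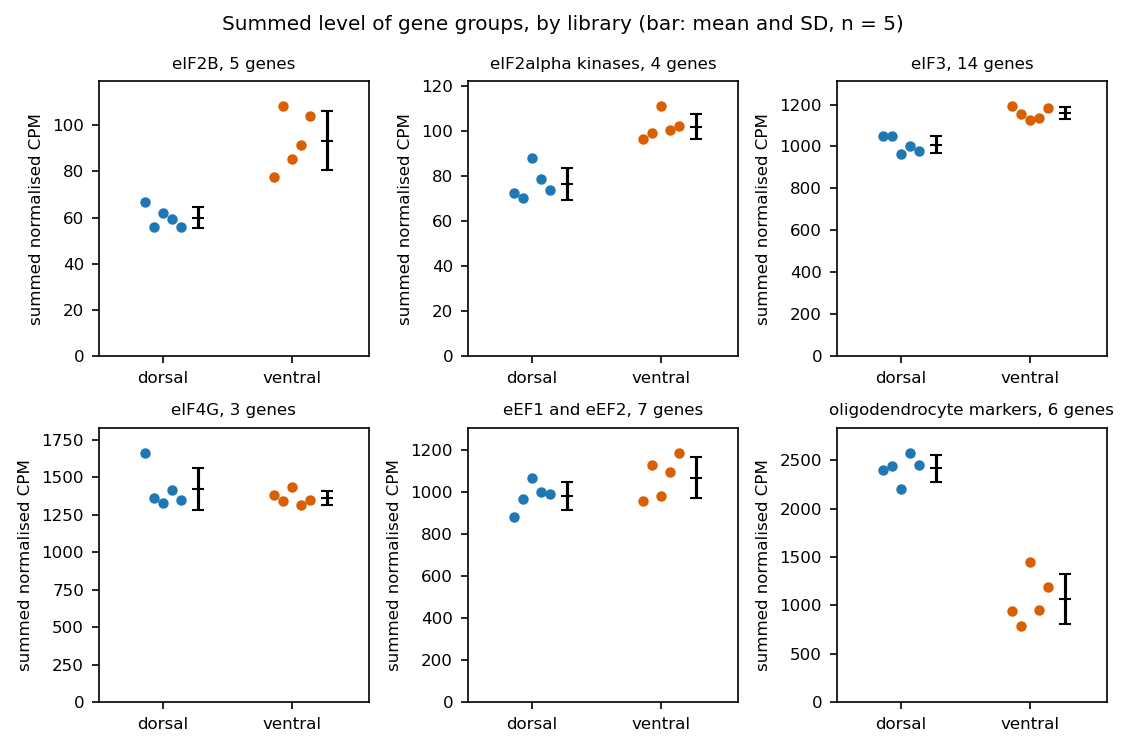
Summed normalised CPM (y axis, starting at 0) per library for 5 groups of factors and for 6 oligodendrocyte markers; points are libraries, dorsal in blue and ventral in orange, with mean and SD in black. eIF2B (55.8 to 66.7 against 77.8 to 108 CPM), the eIF2alpha kinases and eIF3 did not overlap between groups, and the oligodendrocyte markers did not overlap in the opposite direction.

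Some markers of other cells also differed in the same comparison. All 6 oligodendrocyte markers were detected, none of them at 0, and summed to 2199 to 2574 CPM in dorsal against 792 to 1453 CPM in ventral libraries. Of the 6, 3 were called dorsal-enriched, beside 15.7% of all genes, and none ventral-enriched. All 8 interneuron markers had log2 fold changes below 0, and 3 of the 8 were ventral-enriched, beside 9.85% of all genes. Of 6 pyramidal cell markers, 5 had values above 0 and 1 was dorsal-enriched. Of 5 granule cell markers, 1 was called in each direction. Astrocyte markers overlapped between groups in their sum, at 278 to 362 CPM in dorsal against 241 to 393 CPM in ventral libraries. The members went opposite ways. Aqp4, Gfap and Slc1a3 were dorsal-enriched, Aldh1l1 was ventral-enriched, and Aldoc averaged 133 CPM in dorsal against 196 CPM in ventral libraries without overlap. Microglial markers summed to 19.5 to 23.6 CPM in dorsal against 12.3 to 24.8 CPM in ventral libraries, and 1 of the 5 was dorsal-enriched. Endothelial markers summed to 4.61 to 30.7 CPM against 8.28 to 43.1 CPM, and 0 of the 4 were called. Both sums overlapped between groups. The part of all these markers in the levels of the translation factors was not tested.

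Several factors exist as related paralogues, and their ratio within a library needs no scaling between libraries. The ratios were not corrected for GC content or exonic length. Over 8 pairs, no ratio differed between groups after Benjamini-Hochberg adjustment (two-sided exact permutation tests, adjusted p from 0.571 to 0.881). With 5 against 5 the lowest p this test can give is 0.00794, or 0.0635 once adjusted over 8 pairs, so that 1 ratio alone could not have passed 0.05 even with groups fully apart. The ratio of Eef1a2 to Eef1a1 counts was 0.104, 0.292, 0.255, 0.299 and 0.277 in dorsal and 0.444, 0.469, 0.269, 0.419 and 0.290 in ventral libraries. On the log2 scale this was -2.12 ± 0.64 against -1.44 ± 0.37 (SD, n = 5 each), a difference of -0.68 (SE 0.33, exact permutation p = 0.0714, adjusted p = 0.571) that did not pass the test and fell to -0.40 without dorsal replicate 1.

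For the helicase pair, Eif4a1 was at 181, 143, 138, 145 and 141 CPM in the dorsal and 185, 176, 158, 162 and 206 CPM in the ventral libraries. Its ratio to Eif4a2 was between 0.182 and 0.187 in every dorsal library and between 0.166 and 0.219 in ventral libraries, with a log2 difference of 0.05 (SE 0.07). Ventral replicate 5 alone lay above the dorsal libraries and the other ventral ones all lay below them. Without it the difference was 0.12, with the lowest p that an exact permutation of 5 against 4 can give, 0.0159 (adjusted p = 0.127). For the hypusinated factor eIF5A, Eif5a was at 137, 141, 134, 135 and 126 CPM in the dorsal and 133, 184, 107, 138 and 151 CPM in the ventral libraries. Its paralogue Eif5a2 was at 178, 148, 123, 146 and 138 CPM against 265, 149.7, 180.2, 181 and 155 CPM. The values of both genes overlapped between groups, and their log2 ratio differed by -0.26 (SE 0.25). With the GC and length correction Eif5a2 was ventral-enriched, at -1.10 (edgeR adjusted p = 9.1e-05).

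Among the cap-binding factors, Eif4e was at 536, 388, 393, 475 and 457 CPM in the dorsal and 561, 537, 326, 355 and 335 CPM in the ventral libraries. The related Eif4e2, which binds the cap in repressor complexes, was at 99.6, 123, 106, 89.8 and 96.0 CPM against 115, 110.1, 113, 95.5 and 115 CPM, and the log2 ratio of Eif4e2 to Eif4e differed by -0.22 (SE 0.23). Both genes overlapped between groups. The scaffold Eif4g1 was at 44.2, 55.2, 59.7, 54.6 and 50.6 CPM in the dorsal and 55.9, 56.2, 47.2, 58.2 and 50.6 CPM in the ventral libraries. Its paralogue Eif4g3 was at 231, 162, 161, 207 and 197 CPM against 198, 173, 195, 176 and 188 CPM, which left a log2 ratio difference of 0.06 (SE 0.19). Both scaffolds overlapped between groups.

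For the scanning factor eIF1, Eif1 was at 229, 195, 191, 179 and 187 CPM in the dorsal and 228, 213, 194, 206 and 226 CPM in the ventral libraries, and Eif1b at 372, 312, 363, 399.7 and 374 CPM against 303, 521, 360.3, 335 and 360.0 CPM. The log2 ratio differed by 0.10 (SE 0.17). The sex-linked pair gave 56.4, 41.1, 35.8, 43.9 and 40.5 CPM for Eif2s3x in dorsal and 44.4, 54.2, 44.2, 44.8 and 47.4 CPM in ventral libraries. The Y-linked Eif2s3y gave 35.9, 49.1, 30.5, 30.4 and 30.3 CPM against 36.8, 33.0, 52.3, 33.8 and 33.0 CPM, a log2 ratio difference of 0.02 (SE 0.23). Finally, Eif4ebp1 was at 0.470, 1.82, 0.0681, 0.300 and 0.236 CPM in the dorsal and 0.943, 0.440, 0, 1.14 and 0.567 CPM in the ventral libraries, near the level of 3 counts. Eif4ebp2 was at 55.8, 69.0, 65.2, 53.6 and 58.2 CPM against 54.3, 47.3, 56.8, 64.0 and 68.2 CPM. These pairs overlapped between groups in every gene.

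**Figure D4:**
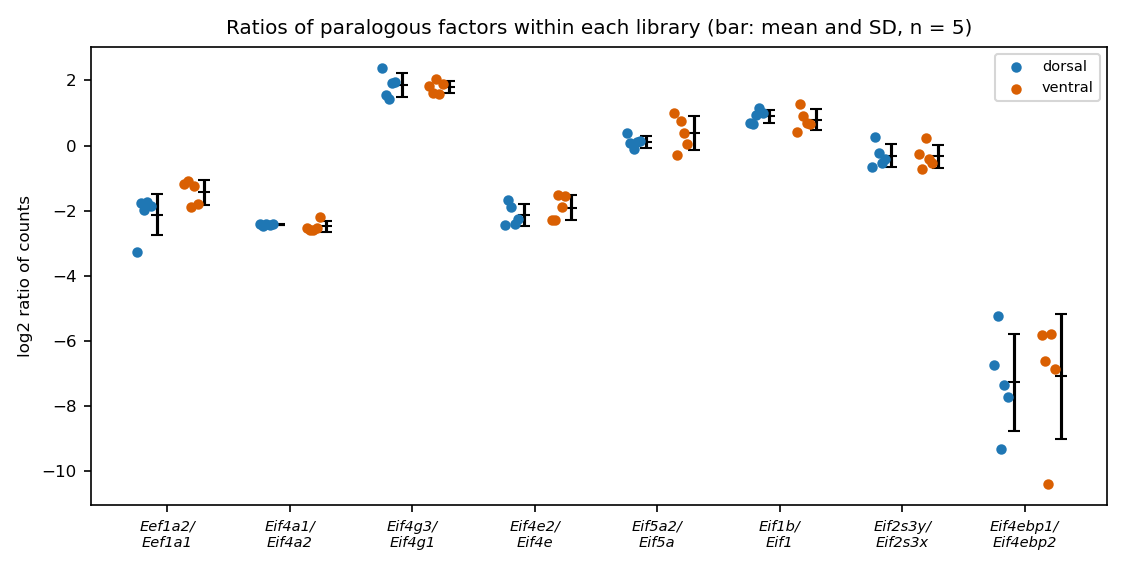
Log2 ratio of the counts of 2 paralogues within each library (y axis) for 8 pairs (x axis); points are the 5 dorsal (blue) and 5 ventral (orange) libraries and black bars the mean and SD. The groups overlap in all 8 pairs, and the ratio of Eef1a2 to Eef1a1 has the largest difference, -0.68.

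Compared per kilobase of exonic length, the level differed widely among factors. Eif1b, of which 12.7% overlaps a gene on the opposite strand, led with a mean of 329 CPM per kb over all libraries, followed by Eif4a2 with 169, Eef1a1 with 121 and Eif4g2 with 113 CPM per kb, while the called genes ranged from 2.80 CPM per kb for Eif3d to 44.6 CPM per kb for Eef1a2. The 3 factors that failed the filter were close to absent at this depth: Eif4e1b had 0 to 1 counts per library, Eif4ebp3 0 to 1 and Eef1akmt3 0 to 3, so that no comparison was detectable.

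Genes that act on or beside these factors were counted in lists. Of 13 genes that signal to the factors, Impact, which restrains the kinase GCN2, was ventral-enriched (log2 fold change -0.65, SE 0.15, edgeR adjusted p = 0.00608) and Mknk1, a kinase of eIF4E, was dorsal-enriched (0.83, SE 0.22, edgeR adjusted p = 0.0120); Mtor itself was at -0.08. Below the fold threshold, 1 of 5 poly(A)-binding proteins and partners and 4 of 8 other initiation factors passed the adjusted p with lower dorsal levels. At any fold, 14.6% of all genes did so. Pabpc1, the main poly(A)-binding protein, passed the adjusted p with higher dorsal levels (0.51, SE 0.16, edgeR adjusted p = 0.0225). Of 8 genes that modify the factors with hypusine or diphthamide, Dph1 was dorsal-enriched (1.83, SE 0.51, edgeR adjusted p = 0.0115). Its mean stood at 1.67 CPM for the dorsal group, beside 0.451 CPM for the ventral one. No ventral value of Dph1 exceeded 0.696 CPM, so this gene passed the expression filter through dorsal libraries alone. Of 5 tested genes of termination, rescue and selenocysteine insertion, 1 was ventral-enriched. It was Eefsec, the elongation factor for selenocysteine (-0.77, SE 0.23, edgeR adjusted p = 0.0220).

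Of 9 tested targets of the integrated stress response, 1 was ventral-enriched, beside 9.85% of all genes, and 0 were dorsal-enriched, beside 15.7%. Asns, asparagine synthetase, averaged 31.9 ± 4.28 CPM in the dorsal and 58.1 ± 8.62 CPM in the ventral group (SD, n = 5), a log2 fold change of -0.87 (SE 0.14, edgeR adjusted p = 0.000671). Atf4, the transcription factor of the pathway, was at -0.10 (SE 0.10) and 6 of the 9 targets had values below 0.

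The 8 called factors had a GC content of 45.1 to 60.6%, and 7 of the 8 lay above 50%, beside 28 of the 57 factors that were not called. After each library was corrected for GC content and exonic length, 12 factors were ventral-enriched and 0 dorsal-enriched, beside 9.97% of all genes called ventral-enriched. The correction kept Eif2b2 (-0.73), Eif2b5 (-0.65), Eif3i (-0.60), Eif3k (-0.62), Eif6 (-0.68) and Eef1e1 (-0.80), and ended the calls of Eef1a2 (-0.41) and Eif3d (-0.39).

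It added Eif2s3y (-1.25), Eif5a2 (-1.10), Eif3e (-1.01), Eif3m (-0.63), Eif2s2 (-0.60) and Eif2s1 (-0.59), with GC contents of 37.3 to 41.9%. In that range of GC content 28.8% of 1105 protein-coding genes were called ventral-enriched with the correction and 5.97% without it. With the percentage of pairs assigned to no gene as a covariate, Eif3k alone passed (-1.10, edgeR adjusted p = 0.0157), beside 2.02% of all genes. This percentage itself did not overlap between dorsal and ventral libraries. The other 7 called factors kept a log2 fold change below 0, from -0.93 for Eif6 to -0.29 for Eef1e1.

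**Figure D5:**
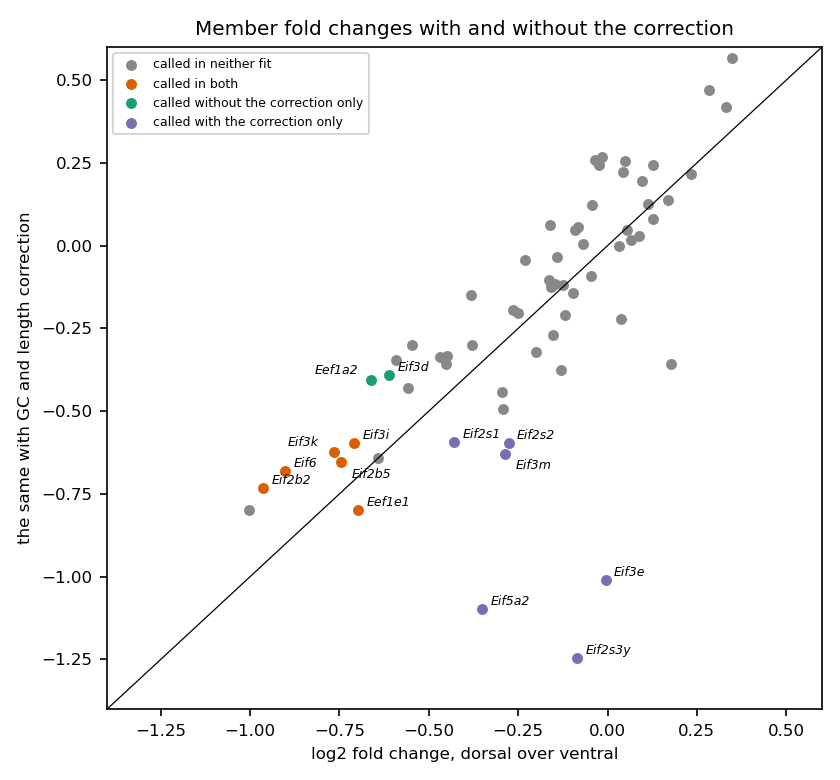
Log2 fold change, dorsal over ventral, of the tested factors without (x axis) and with (y axis) correction of each library for GC content and exonic length; the line marks equal values. The 6 orange genes were called in both fits, the 2 green ones without the correction only and the 6 purple ones with it only, among them Eif2s3y at -1.25 and Eif3e at -1.01.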

How the data were processed

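Ribosome-bound RNA of 5 dorsal and 5 ventral TRAP libraries, each from pooled tissue of 5 mice, was measured. The authors used the Ovation V2 kit for amplification, sequenced 50 bp paired ends, aligned them to GRCm38 with STAR 2.5.2b and counted them with HTSeq 0.7.2 (versions from the submitters' processing notes); the strand setting and annotation release are not given in the sources used here. Whole-number counts of each gene were deposited, not normalized by the authors. Groups and replicate numbers came from the sample labels, and p-values measure the spread between pools. No library was a duplicate.

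The 54838 identifiers were matched to GENCODE for GRCm38 (54809 matched). Under R 4.3.3, edgeR 4.0.16 (TMM, quasi-likelihood test over all genes) was run on genes that exceeded CPM 1 in 2 or more libraries, with the thresholds of the study's methods (adjusted p below 0.05, log2 ratio above 0.58); here the log2 ratio was that of mean CPM plus 1, and edgeR's own fold change was an alternative. Printed CPM are scaled by TMM; the SE is |log2 fold change|/√F. Paralogue ratios used counts plus 0.5. The members, lists and pairs were chosen with earlier results of these data known. Values per library are given for called factors, members of the pairs and Eif2s1, log2 fold changes for eIF2B, eIF3, elongation factors and uncalled factors past the adjusted p, and ranges or counts for the rest; values of other roles and of genes beyond the lists' called ones were chosen after they were seen. Alternatives included DESeq2 1.42.0, other scalings and filters, a GC and length correction (mgcv 1.9.3), covariates and each library left out. The fits were tested on simulated data. Each SE and SD includes the spread between pools. Floors in CPM cover counting error only, and amplified reads carry no molecular identifiers.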

Additional observations from a re-analysis of the deposited data

Results flagged for a closer look

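In 64 groups of 5 libraries (the CPM of factors given by library and the paralogue ratios), 11 held a library far from the others, with a gap to its nearest neighbour of more than 0.71 of the whole range; chance alone marks about 1 in 20 such groups, and factors of 1 library are not independent. Dorsal replicate 1 accounted for 5 of the 11. It was lowest for Eef1a2 (34.53 CPM, the others at 78.3 to 84.1) and for the ratio of Eef1a2 to Eef1a1 (0.1045, the others at 0.255 to 0.299), and highest for Eif4a1 (181.2 CPM), Eif4a2 (973.0 CPM) and Eif2s1 (53.06 CPM). This library had the smallest total, 11138676 counts on genes, and the part of depth in these values was not tested. Dorsal replicate 2 was highest for Eif4ebp1 (1.819 CPM, the others at 0.0682 to 0.470).

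Among ventral libraries, replicate 1 was highest for Eif5a2 (264.6 CPM, the others up to 181), replicate 2 for Eif1b (520.6 CPM, the others up to 360.3), replicate 3 for Eif2s3y (52.26 CPM, the others up to 36.8) and replicate 5 for the ratio of Eif4a1 to Eif4a2 (0.2188, the others up to 0.174), while replicate 4 was lowest for Eif4e2 (95.53 CPM, the others from 110.1).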

How the results depend on the processing

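Under 27 alternatives the count of dorsal-enriched factors was 0 each time. The count of ventral-enriched factors, 8, was 13 with no fold threshold and 1 with the percentage of pairs assigned to no gene as covariate. It lay between 6 and 10 when each library was left out. The count was 12 with the GC and length correction, alone or with the block, and 6 to 8 under the remaining alternatives. With the replicate number as a block it was 8. Equal replicate numbers deviated together by correlations of -0.0317 to 0.0695 over genes, and 2 of the 5 dorsal libraries correlated best with their own number, which gave no sign that equal numbers pair the samples; as the groups share mice, shared pools under other numbers were not tested. Of the paralogue ratios, Eef1a2 to Eef1a1 had the lowest p that sign flips of 5 pairs can give, 0.0625 (replicate block; adjusted p = 0.5), so that no ratio could pass that test. With a library left out, 1 ratio alone could not go below an adjusted p of 0.127. None passed on the linear scale. Eif2b2, Eif2b5, Eif3i, Eif6 and Eef1e1 were called in 26 of 27 alternatives, all but the covariate, Eif3k in 27, Eef1a2 in 20 and Eif3d in 9. Over all genes, 2636 dorsal and 1655 ventral calls became 2679 and 1719 when the threshold was put on the edgeR fold change itself, 834 and 339 with the covariate, 1498 and 897 at an adjusted p below 0.01, and 1665 and 1292 among protein-coding genes alone. The median log2 fold change of -0.15 was -0.19 with the GC and length correction and -0.20 with the block added, and -0.17 to -0.10 when each library was left out. Among 45 named factors, 80 of 1212 values under alternatives changed sign, each of a factor called in neither fit, 31 of them with the correction or the covariate; no called factor changed direction. Factors with at most 3 counts per library could not be compared at this depth.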
